A study of Mus musculus with 15 samples.

Results

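Krt8, Krt18 and Krt19, keratins of simple epithelia, were read by 5 of 22626 probe sets on 15 Affymetrix MOE430A arrays, which read each transcript through a set of short oligonucleotide probes. Krt8 had 3 probe sets and Krt18 and Krt19 had 1 each. They were found by the gene symbols and Entrez IDs in the authors' deposited lists, which name 2402 probe sets, under the older names Krt2-8, Krt1-18 and Krt1-19. All 5 lay above the median of their own array on each of the 15 arrays. They stand on the authors' lists of probe sets lower in buds labelled PTHrP-/- and lower in WT ventral skin, both against WT mammary buds. A probe set off those lists has no name here, so the direction in these 2 comparisons was fixed by the way the members were found and is not independent evidence. Comparisons of other groups with WT buds use the same WT bud arrays, so they are not free of this selection.

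Embryos were CD-1 mice taken at embryonic day 15, with 3 arrays in each of 5 groups. The groups were mammary buds labelled PTHrP-/- (PTHrP is the secreted peptide encoded by Pthlh), ventral skin labelled K14-PTHrP, ventral skin labelled K14WT, which is wild-type skin used as its control, WT ventral skin, and WT mammary buds. In K14-PTHrP skin a keratin 14 promoter directs PTHrP to the basal layer of the epidermis. RNA came from pooled tissue of a single genotype, an average of 120 buds giving about 20 ug. Since the labels leave unsaid whether each array had a pool of its own, p-values reflect only how these preparations varied, and that variation may be technical. Whole pieces of tissue were used, and in such samples fewer cells of a type and less RNA per cell cannot be told apart.

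The values were the authors' log2 expression levels, with array medians between 3.86 and 4.05, and 11690 probe sets were kept for testing. The targeted gene did not check the labels, since Pthlh averaged 6.40 in buds labelled PTHrP-/- against 5.43 in WT buds, and 3.54 in skin labelled K14-PTHrP against 4.16 in K14WT skin. Every direction below therefore rests on the labels. The epithelial markers Cdh1 and Epcam were bright in all groups, with group means of 9.56 to 9.87 and 8.12 to 9.29. The 3 WT skin arrays stood more than 0.5 log2 units away from all 12 other arrays at 127 kept probe sets, 62 of them higher and 65 lower. At 89 of these the mean of the WT skin arrays or that of the other arrays lay below the median level of an array. Whether the deposited WT skin values of these probe sets belong to other probe sets was not tested. None of the keratin probe sets was among them, and the WT skin signals of the keratins in the authors' deposited table equal the rounded means of the linearized values used here. Adjusted p-values in comparisons with WT skin are given with and without the 127. K14WT skin and WT skin, both wild type, also differed from each other, at 7.37% of kept probe sets.

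Keratins are the intermediate filament proteins of epithelia, and a filament needs a type II keratin paired with a type I keratin. Krt8 encodes the type II and Krt18 the type I keratin of simple, single-layered epithelia, which are the first keratins of the embryo. Krt19 encodes the smallest type I keratin, which lacks most of the tail that other keratins carry. In the mouse all of them are found in mammary epithelium, in the embryonic periderm that covers the epidermis, and in other lining epithelia, and the first pair also marks Merkel cells, the touch receptors of skin.

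In the RefSeq annotation of GRCm38.p6, Krt8 and Krt18 are neighbours among protein-coding genes on chromosome 15, with Krt78 on the other side of Krt8 and Eif4b on the other side of Krt18. Krt19 is on chromosome 11 between Krt15 and Krt9. Promoter windows were available for the adjacent pair, whose profiles across the arrays were the most alike of the members, but not for Krt19. Each window runs from 250 bases before to 50 after the annotated start, in RefSeq's sequence of GRCm38.p6, and lies at chr15:102004293-102004592 on the minus strand for Krt8 and at chr15:102027966-102028265 on the plus strand for Krt18. Capitals mark matches to the motifs searched on both strands.
Krt8: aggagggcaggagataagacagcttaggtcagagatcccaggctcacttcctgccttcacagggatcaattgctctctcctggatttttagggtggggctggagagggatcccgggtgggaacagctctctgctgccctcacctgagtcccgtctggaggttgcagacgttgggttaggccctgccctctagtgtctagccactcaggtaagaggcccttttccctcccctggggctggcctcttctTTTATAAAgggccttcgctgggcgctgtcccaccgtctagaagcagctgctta
Krt18: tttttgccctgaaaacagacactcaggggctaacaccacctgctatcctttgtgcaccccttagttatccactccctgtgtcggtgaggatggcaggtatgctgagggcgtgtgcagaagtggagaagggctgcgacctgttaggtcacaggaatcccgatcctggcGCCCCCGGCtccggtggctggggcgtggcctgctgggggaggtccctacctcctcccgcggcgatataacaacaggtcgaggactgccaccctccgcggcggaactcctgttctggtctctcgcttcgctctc
The Krt8 window held TATAAA, the letters of a TATA box, on both strands in overlapping matches from base 248 of the window. These began at -3 and -1 bases from the annotated start. The Krt18 window held no exact match, and inexact matches were not searched. TATAAA is present in 13.6% of all 32851 promoter windows. The AP-2 motif GCCNNNGGC, present in 16.6% of windows, matched once in the Krt18 window, from base 168, and not in that of Krt8. The GC box GGGCGG (35.7% of windows), CCAAT (37.4%), the AP-1 motif TGANTCA (7.81%) and the Ets core TTCCGG (14.9%) were in neither. The windows held 58% and 61.3% G or C for Krt8 and Krt18, against a median of 52.7% over all windows. The matches describe letters in these windows and not binding.

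All of these keratins were brightest in WT buds. For the brightest probe set of Krt8, and for Krt18 and Krt19, the group means had the same order, from skin labelled K14-PTHrP at the low end through K14WT skin, WT skin and buds labelled PTHrP-/- to WT buds at the top. No step between neighbours in this order passed the test for any of the genes. The test was limma's moderated test in 1 fit of all 15 arrays, with Benjamini-Hochberg adjustment over all kept probe sets, and these 12 steps had a lowest adjusted p of 0.0729, with 5 unadjusted p-values under 0.05. Steps that skip a neighbour are given below.

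**Figure D1:**
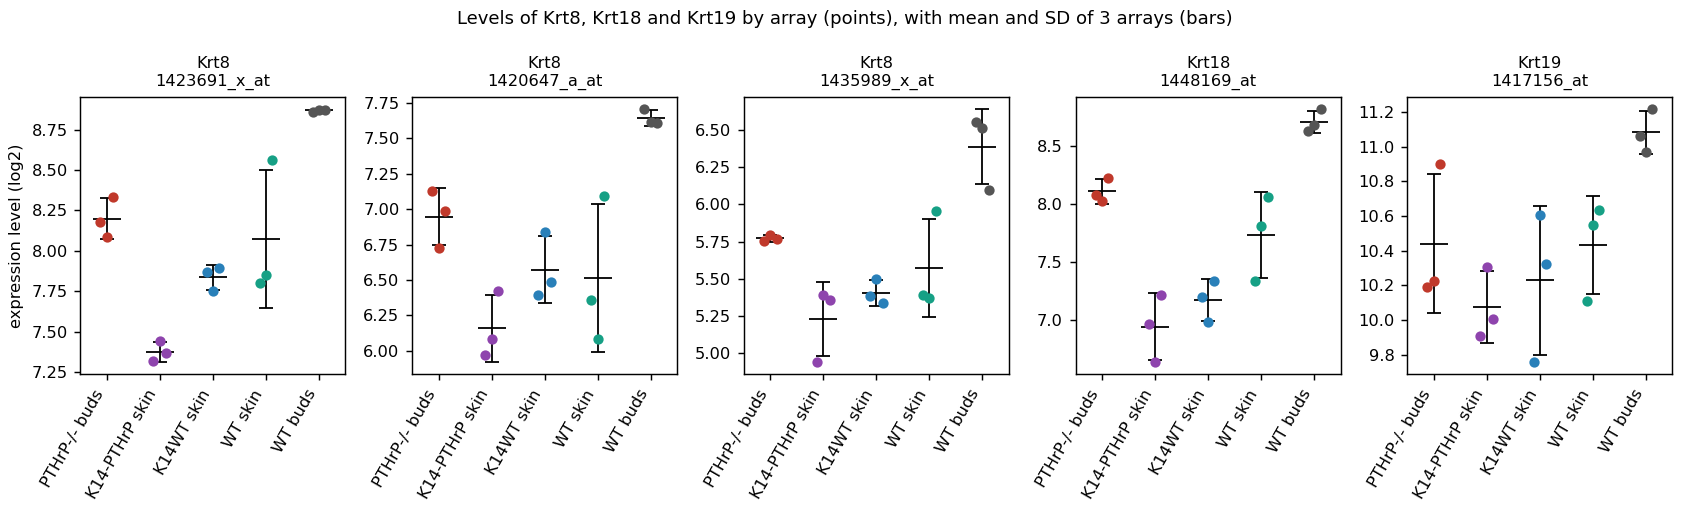
Log2 expression level (y axes, 1 scale per panel) of the 5 probe sets in the 5 groups; points are arrays, and the bars give the mean and SD of 3 arrays. WT buds are highest in every panel, and in WT skin 1 array of Krt8 lies well above the other arrays of its group.

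Krt8 is read first by probe set 1423691_x_at, the brightest of its 3. It was at 8.18, 8.08 and 8.33 log2 units in buds labelled PTHrP-/-, against 8.86, 8.87 and 8.87 in WT buds. The skin arrays read 7.32, 7.44 and 7.37 in skin labelled K14-PTHrP, 7.87, 7.75 and 7.89 in K14WT skin, and 7.80, 7.85 and 8.56 in WT skin. WT buds overlapped with no other group, and skin labelled K14-PTHrP lay below every other array. The spread was uneven, with an SD of 0.43 in WT skin and 0.0069 in WT buds (n = 3 each). In WT skin replicate 3 stood apart from the other arrays of its group.

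The other Krt8 probe sets followed the same pattern with small exceptions. Probe set 1420647_a_at averaged 6.95 ± 0.20 (SD, n = 3) in buds labelled PTHrP-/-, 6.16 ± 0.24 in skin labelled K14-PTHrP, 6.57 ± 0.24 in K14WT skin, 6.51 ± 0.52 in WT skin and 7.64 ± 0.054 in WT buds. Probe set 1435989_x_at averaged 5.77 ± 0.022 in buds labelled PTHrP-/-, 5.23 ± 0.25 in skin labelled K14-PTHrP, 5.41 ± 0.084 in K14WT skin, 5.57 ± 0.33 in WT skin and 6.39 ± 0.25 in WT buds. WT buds were highest at both, and at the first of them K14WT skin and WT skin changed places. WT skin replicate 3 was the highest array of its group at both, with 7.09 and 5.95. Probe sets ending in x_at can bind other transcripts as well, and how far that touches these values was not tested. Across the 15 arrays the pairs of Krt8 probe sets had Pearson r from 0.923 to 0.934, a description of probe sets that share the arrays and the transcript. The authors' detection calls, in the authors' deposited table, marked every bud and WT skin array as present for 1423691_x_at and 1420647_a_at. For 1435989_x_at they gave 1 present and 2 marginal calls in buds labelled PTHrP-/- and 1 each of present, marginal and absent in WT skin, against 3 present in WT buds.

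Krt18, read by probe set 1448169_at, was at 8.08, 8.02 and 8.23 in buds labelled PTHrP-/-, against 8.63, 8.68 and 8.82 in WT buds. Skin labelled K14-PTHrP read 6.97, 6.64 and 7.22, K14WT skin 7.20, 6.99 and 7.34, and WT skin 7.34, 7.81 and 8.06. The bud groups did not overlap with each other, and skin labelled K14-PTHrP overlapped with K14WT skin. WT skin was again the most spread group, with an SD of 0.37, and its replicate 3 reached into the range of the buds labelled PTHrP-/-.

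Krt19, read by probe set 1417156_at, was at 10.19, 10.22 and 10.90 in buds labelled PTHrP-/-, against 11.06, 10.97 and 11.21 in WT buds. The skin arrays read 9.91, 10.31 and 10.01 in skin labelled K14-PTHrP, 9.76, 10.60 and 10.32 in K14WT skin, and 10.11, 10.55 and 10.63 in WT skin. Every WT bud array lay above every other array, and the nearest to them was replicate 3 of the buds labelled PTHrP-/-. The other 4 groups overlapped with each other.

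The bud comparison sets buds labelled as lacking PTHrP against WT buds. Against WT buds, the buds labelled PTHrP-/- had 1.59-fold less Krt8 (log2 difference -0.67 ± 0.16 SE, adjusted p = 0.209), 1.52-fold less Krt18 (-0.60 ± 0.18, adjusted p = 0.247) and 1.56-fold less Krt19 (-0.64 ± 0.23, adjusted p = 0.275). The other Krt8 probe sets were at -0.70 ± 0.22 and -0.61 ± 0.17. None of these differences passed the test over all kept probe sets, of which only 0.0342% did. At all 5 probe sets every array labelled PTHrP-/- lay below every WT bud array, which was also true of 18.0% of kept probe sets. The sizes were near one another, and the 95% intervals of the fit ran from -1.02 to -0.33 for Krt8, -0.99 to -0.21 for Krt18 and -1.14 to -0.14 for Krt19. In the authors' deposited table the same probe sets are lower by 1.51-fold to 1.61-fold with false discovery rates of 0.0005 to 0.0039. In a fit of the 2 bud groups alone, where the spread of the skin arrays does not enter, Krt8 and Krt18 passed (adjusted p = 0.0433 and 0.0453) and Krt19 did not (0.115). Without WT skin replicate 3, Krt8 also passed in the fit of all groups (adjusted p = 0.0247).

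Ventral skin against buds asks what sets the bud apart from the surface around it. In WT skin Krt18 was 1.97-fold lower than in WT buds (-0.98 ± 0.18, adjusted p = 0.00841) and Krt8 was 1.74-fold lower (-0.80 ± 0.16, adjusted p = 0.0170). Krt19 was at -0.65 ± 0.23 and did not pass (adjusted p = 0.288). The other Krt8 probe sets passed as well, at -1.13 ± 0.22 and -0.81 ± 0.17 (adjusted p = 0.0129 and 0.0233). Among kept probe sets 0.890% were called lower and 9.39% had no overlap downward, as all 5 keratin probe sets did. With the 127 probe sets at which WT skin stands apart left out, no keratin probe set passed (Krt18 adjusted p = 0.0559, Krt8 0.0700), and 0.0519% of the others were called lower. The call of Krt8 was also lost without WT bud replicate 1, 2 or 3 (adjusted p = 0.0667, 0.0774 and 0.0601) or without WT skin replicate 1 or 2 (0.107 and 0.0887), or with only WT skin and WT buds fitted (0.108). The authors' deposited table lists the probe sets of Krt8 as lower by 1.68-fold to 2.09-fold, Krt18 by 1.93-fold and Krt19 by 1.56-fold.

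The estimated difference from WT buds was larger in K14WT skin, a separate wild-type set, though no keratin passed between the wild-type skin sets. The exception was Krt8 probe set 1420647_a_at, at -1.07 ± 0.22 in K14WT skin and -1.13 ± 0.22 in WT skin. In K14WT skin Krt18 fell 2.90-fold (-1.54 ± 0.18, adjusted p = 0.00188), Krt8 fell 2.05-fold (-1.03 ± 0.16, adjusted p = 0.00469) and Krt19 fell 1.81-fold (-0.85 ± 0.23, adjusted p = 0.0335). All arrays of all 5 probe sets lay below the WT bud arrays, against 23.6% of kept probe sets, and 9.36% were called lower. In skin labelled K14-PTHrP the differences from WT buds were -1.77 ± 0.18 for Krt18 (adjusted p = 0.000188), -1.49 ± 0.16 for Krt8 (0.000283) and -1.01 ± 0.23 for Krt19 (0.0315), and 3.37% of kept probe sets were called lower. Their arrays did not overlap with WT buds at any of the 5 keratin probe sets, which held for 14.7% of kept ones. The calls of Krt18 and Krt8 held under each alternative run, with a highest adjusted p of 0.0245. Krt19 lost its call against K14WT skin without any 1 of the WT bud arrays or without K14WT replicate 1 or 3, and against skin labelled K14-PTHrP without any 1 of the WT bud arrays or without K14-PTHrP replicate 1 (adjusted p up to 0.109). These comparisons and the bud comparison share the WT bud arrays, so they are not independent of each other. The members were found as higher in these same WT bud arrays, so the comparisons are not independent of that choice either.

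**Figure D2:**
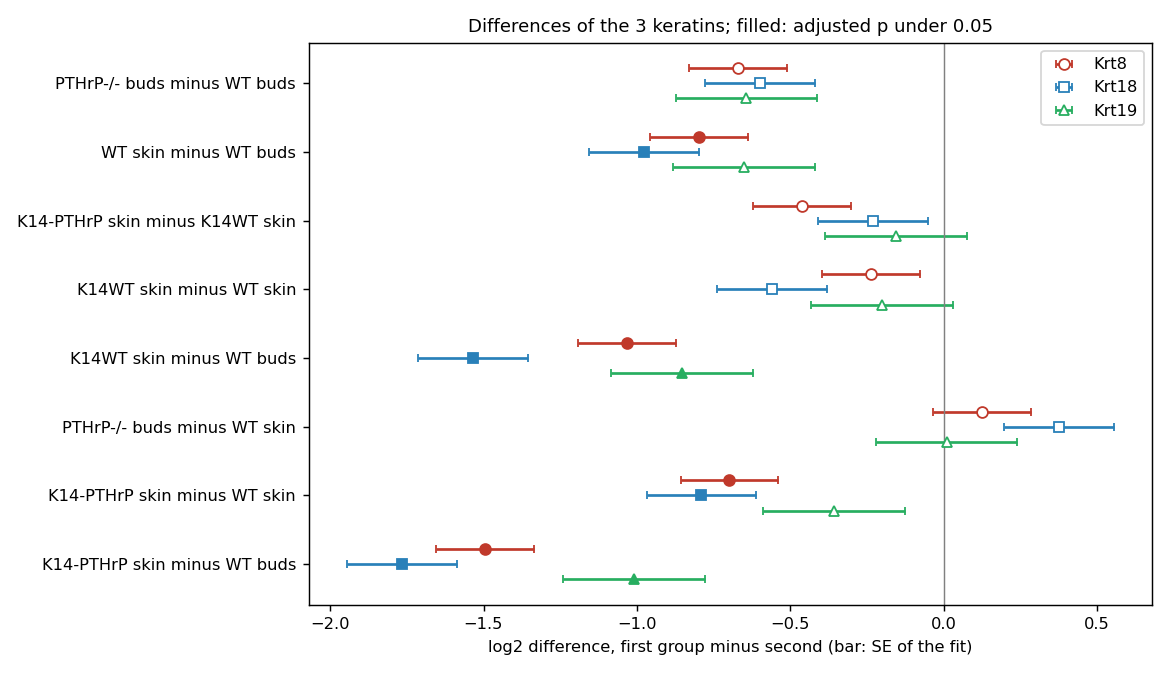
Log2 difference of Krt8, Krt18 and Krt19 (x axis, first group minus second) in 8 comparisons, with the SE of the fit; filled symbols mark an adjusted p under 0.05. The differences from WT buds run from -0.60 to -1.77, and Krt19 lies nearest to 0 in 7 of the comparisons, the bud comparison being the exception.

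The transgenic comparison asks what differs in skin labelled K14-PTHrP against K14WT skin, and it shares no array with the lists that named the probe sets. Krt8 was at -0.46 ± 0.16 (adjusted p = 0.293), Krt18 at -0.23 ± 0.18 (0.596) and Krt19 at -0.15 ± 0.23 (0.799). None passed the test, whereas 0.710% of kept probe sets did. The arrays of the 2 groups did not overlap at Krt8 probe set 1423691_x_at, with those labelled K14-PTHrP lower, as at 6.60% of kept probe sets. They overlapped at the other 4 keratin probe sets, including the other ones of Krt8 (-0.42 ± 0.22 and -0.17 ± 0.17). Without WT skin replicate 3 the first Krt8 probe set passed (adjusted p = 0.0384), and with only the K14 groups fitted it did not (0.550). The 95% intervals reached from -0.81 to -0.12 for Krt8, -0.62 to 0.16 for Krt18 and -0.65 to 0.34 for Krt19.

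The bud and transgenic comparisons were also set against each other directly. The bud difference minus the skin difference was -0.21 ± 0.23 for Krt8, -0.37 ± 0.25 for Krt18 and -0.49 ± 0.33 for Krt19, with adjusted p from 0.421 to 0.631, while 0.659% of kept probe sets passed this test. Their 95% intervals were -0.70 to 0.28, -0.91 to 0.18 and -1.19 to 0.22. A difference between the comparisons was thus not shown for any of these keratins.

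Between the wild-type skin sets, Krt18 was at -0.56 ± 0.18 in K14WT skin against WT skin (adjusted p = 0.0729), Krt8 at -0.24 ± 0.16 (0.361) and Krt19 at -0.20 ± 0.23 (0.595). No keratin passed in this comparison, in which 5.98% of kept probe sets were called lower. Krt18 passed without WT skin replicate 1 (adjusted p = 0.0252) or without K14-PTHrP replicate 2 or 3 (0.0468 and 0.0377). Skin labelled K14-PTHrP was lower than WT skin in Krt18 (-0.79 ± 0.18, adjusted p = 0.0282) and Krt8 (-0.70 ± 0.16, adjusted p = 0.0300), where 2.06% of kept probe sets were called lower. Those calls were lost when the 127 probe sets were left out (0.0507 and 0.0531, with 0.865% called lower). They were also lost with only these groups fitted (0.342 and 0.371) and without K14-PTHrP replicate 1 or 2 (at most 0.116). That of Krt18 was lost also without WT skin replicate 2 or 3 (0.112 each), and the other Krt8 probe sets were not called (-0.35 ± 0.22 and -0.34 ± 0.17). Krt19 was at -0.36 ± 0.23 (0.517).

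Between buds labelled PTHrP-/- and WT skin no difference in these genes passed. The differences were 0.13 ± 0.16 for Krt8, 0.38 ± 0.18 for Krt18 and 0.01 ± 0.23 for Krt19, and the lowest adjusted p was 0.457, with 1.90% of kept probe sets called. K14WT skin was lower than these buds in Krt18 (-0.94 ± 0.18, adjusted p = 0.0255), where 0.864% of kept probe sets were called lower, but not without K14WT replicate 2 or 3 or any 1 of these bud arrays (adjusted p up to 0.0938), and Krt8 was not called (-0.36 ± 0.16, 0.247). Skin labelled K14-PTHrP was lower than these buds in Krt18 (-1.17 ± 0.18, adjusted p = 0.00381, or 0.0602 with only these groups fitted), where 0.719% were called lower. Krt8 was lower there too (-0.82 ± 0.16, adjusted p = 0.0178), but not without K14-PTHrP replicate 1 (0.0720) or bud replicate 1 or 3 (0.0644 and 0.0783), and its other probe sets were not called (-0.79 ± 0.22 and -0.54 ± 0.17). Krt19 did not pass in either comparison (-0.21 ± 0.23 and -0.37 ± 0.23).

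Since Krt8 pairs with a type I partner in filaments, the log2 difference between members within an array was followed across groups. Krt8 minus Krt18 was 0.09 ± 0.025 (SD, n = 3) in buds labelled PTHrP-/-, 0.43 ± 0.33 in skin labelled K14-PTHrP, 0.66 ± 0.10 in K14WT skin, 0.34 ± 0.26 in WT skin and 0.16 ± 0.092 in WT buds. The bud groups overlapped in this difference, and in K14WT skin Krt18 was lower relative to Krt8 than in WT buds without overlap. Krt19 minus Krt18 was 2.33 ± 0.30 in buds labelled PTHrP-/-, 3.13 ± 0.47 in skin labelled K14-PTHrP, 3.05 ± 0.53 in K14WT skin, 2.70 ± 0.11 in WT skin and 2.37 ± 0.075 in WT buds. In all skin groups this difference lay above that in WT buds without overlap, so Krt18 was further below its WT bud level than Krt19 was. Of 15 such comparisons 5 had no overlap, each with p = 0.1 by a two-sided exact permutation test, the smallest that 3 arrays against 3 allow, and 0.3 after Benjamini-Hochberg adjustment over the 15.

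**Figure D3:**
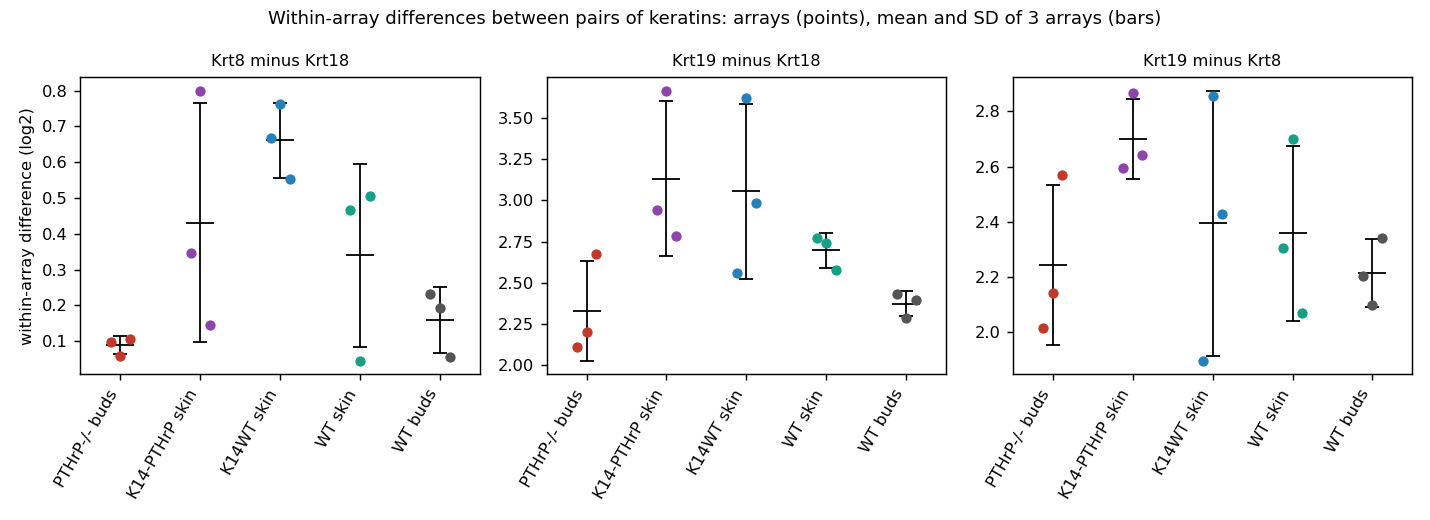
Within-array log2 difference between pairs of keratins (y axes, 1 scale per panel) in the 5 groups; points are arrays, and the bars give the mean and SD of 3 arrays. The means of the bud groups lie close together in each panel, and Krt19 minus Krt18 is higher in the 3 skin groups than in WT buds.

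The keratin list held 24 other keratins, of which 8 were named and kept. In buds labelled PTHrP-/- all 8 were below WT buds, with a median of -0.33 against -0.03 over all kept probe sets, and none passed the test. The nearest in size to the simple keratins were Krt6a, an inducible keratin of periderm and appendages (-0.75 ± 0.43, adjusted p = 0.417), and Krt4, an internal stratified epithelial keratin (-0.62 ± 0.15, 0.209). The basal layer keratins Krt14 (-0.37 ± 0.16) and Krt15 (-0.30 ± 0.14) and the suprabasal keratin Krt1 (-0.25 ± 0.15) were at smaller values. Whether the simple keratins differ from these was not tested. All 8 were named through the lists of probe sets lower in buds labelled PTHrP-/- or in WT skin than in WT buds, so their shared direction was fixed in the same way.

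In WT skin against WT buds Krt4 fell (-0.68 ± 0.15, adjusted p = 0.0315, or 0.0952 with the 127 probe sets left out), and it was the only one of the 8 called. Their median was -0.33 against 0.01 over all kept probe sets. Krt15, the neighbour of Krt19, was at -0.19 ± 0.14, and Krt7, another simple type II keratin, at -0.33 ± 0.29. In skin labelled K14-PTHrP against K14WT skin the 8 had a median of 0.00, the same to 0.01 as all kept probe sets (-0.01), with 4 below 0 and none called. Krt14 was at 0.45 ± 0.16 (adjusted p = 0.299) and Krt2, a keratin of the upper epidermis, at 0.33 ± 0.19 there, on the other side of 0 from the simple keratins.

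**Figure D4:**
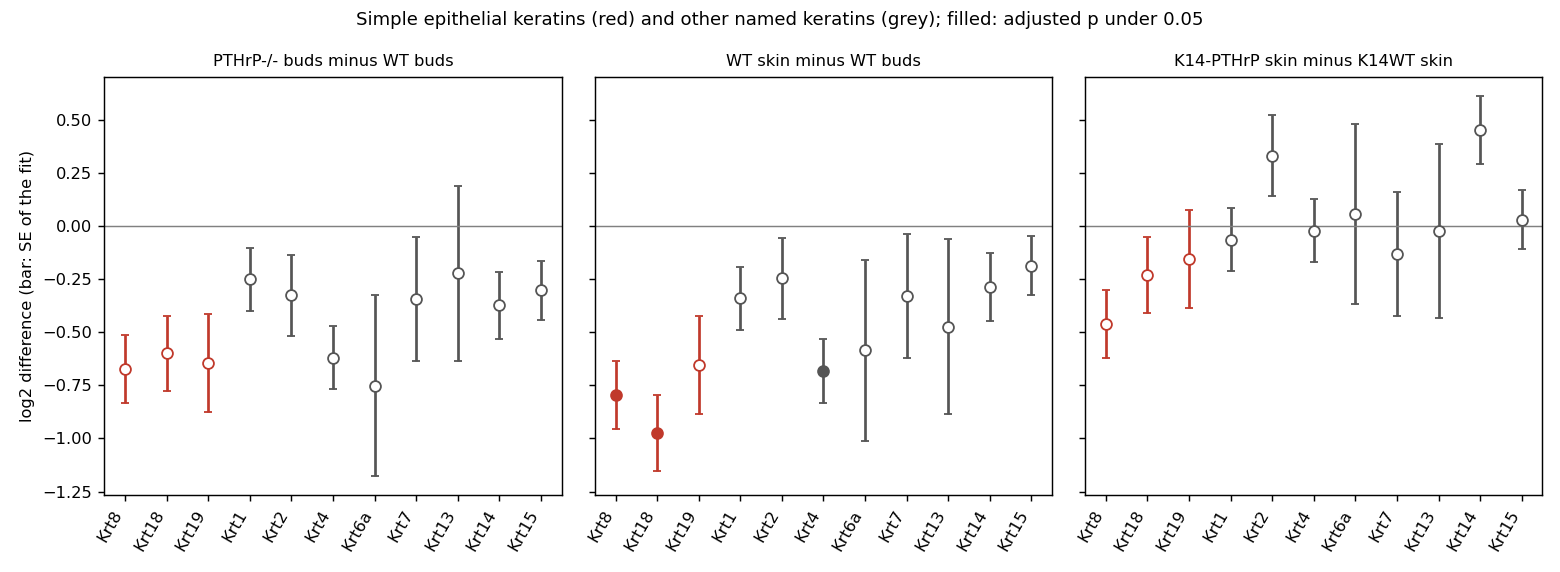
Log2 difference (y axis, with the SE of the fit) of the 3 simple keratins, in red, and of 8 other named keratins, in grey, in the 3 main comparisons; filled symbols mark an adjusted p under 0.05. All 11 lie below 0 in the panels set against WT buds, and the 3 simple keratins and 4 of the others lie below 0 in the panel of the K14 groups.

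Genes of epithelial junctions were read as a further measure of epithelium. Of 27 on the list 8 were named and kept, and none was called in the 3 main comparisons. Cdh1, the adherens junction cadherin, was at 0.26 ± 0.13 in the bud comparison, 0.08 ± 0.13 in WT skin against WT buds and -0.09 ± 0.13 in the transgenic comparison (adjusted p of at least 0.367). Epcam, an adhesion molecule of simple epithelia, was at -0.14 ± 0.19, -0.63 ± 0.19 and -0.08 ± 0.19 in these comparisons, and it fell in K14WT skin against WT buds (-1.09 ± 0.19, adjusted p = 0.00595). The junction list had medians of -0.43, -0.46 and -0.08. Its summed linear signal lay in the range 3320 to 3815 for buds labelled PTHrP-/-, 2770 to 3325 for skin labelled K14-PTHrP, 2792 to 3621 in K14WT skin, 2923 to 3276 in WT skin and 3625 to 4432 in WT buds. In K14WT skin against WT buds 4 of the 8 were called lower, Epcam among them, and 3 were above 0, up to 0.60. These genes too were named through the authors' lists of differences, and their part in the keratin differences was not tested.

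Of 23 cytolinkers, chaperones and epithelial transcription factors listed as partners or regulators of keratins, 11 were named and kept and none was called in the 3 main comparisons. Sfn, a 14-3-3 protein of stratified epithelium, was at -0.64 ± 0.20 in buds labelled PTHrP-/-, and Hspa8, a chaperone, at 0.53 ± 0.13 there and at 0.56 ± 0.13 in WT skin against WT buds (adjusted p = 0.0524). Esrp1, an epithelial splicing factor, was at -0.24 ± 0.13 and -0.45 ± 0.13 in these 2 comparisons.

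Of 24 mammary bud epithelium genes 8 were named and kept. In WT skin against WT buds Pthlh (-1.88 ± 0.24), the transcription factors Sim2 (-1.54 ± 0.25) and Myb (-0.88 ± 0.15), and the Wnt and BMP antagonist Sostdc1 (-0.63 ± 0.14, adjusted p = 0.0360) fell, the last of them not with the 127 probe sets left out (0.106). In skin labelled K14-PTHrP against K14WT skin Sim2 (1.89 ± 0.25, adjusted p = 0.00260) and Sostdc1 (0.83 ± 0.14, adjusted p = 0.0136) rose, where no simple keratin did and 0.513% of kept probe sets were called higher. The transcription factor Elf5 was at -1.53 ± 0.41 there (adjusted p = 0.160), Pthlh at -0.61 ± 0.24 and Wnt4 at -0.15 ± 0.19, and the other members were above 0. None of the 8 passed in buds labelled PTHrP-/-.

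Markers of other cells that could carry these keratins or dilute them were also read. Of 9 periderm genes other than the members, Krt6a, Krt4 and Sfn were named and kept, and their summed signal was 2040 to 2965 for buds labelled PTHrP-/-, 2358 to 3327 for skin labelled K14-PTHrP, 2000 to 2671 in K14WT skin, 2401 to 3225 in WT skin and 3484 to 3856 in WT buds. The sum was highest in WT buds, without overlap, but not each gene in it: Krt6a was at 0.40 ± 0.43 in skin labelled K14-PTHrP and 0.34 ± 0.43 in K14WT skin against WT buds, and Sfn at 0.17 ± 0.20 in WT skin. These genes were named through the same lists of differences as the keratins. No marker of Merkel cells (10 on the list) or mesothelium (5) other than the members was named, so these were not analysed here. Of 15 dermal fibroblast genes 9 were named and kept, 3 of which (Pdgfrb, Prrx1 and Crabp1) rose in WT skin against WT buds, where 0.941% of kept probe sets were called higher, though none of them passed with the 127 left out (adjusted p from 0.0630 to 0.113). Thy1 was called higher in skin labelled K14-PTHrP than in K14WT skin (0.98 ± 0.20, adjusted p = 0.0450), where 0.513% of kept probe sets were called higher. It was the only one of the 9 called there, and 5 of them were below 0, with a median of -0.21. The summed signal of the 9 was 27807 to 31650 for buds labelled PTHrP-/-, 29458 to 39358 for skin labelled K14-PTHrP, 39878 to 42808 in K14WT skin, 34558 to 40867 in WT skin and 25033 to 27986 in WT buds. In buds labelled PTHrP-/- against WT buds, all 10 skeletal muscle genes read had lower arrays without overlap (median -0.44, from -0.57 to -0.29), as had 18.0% of kept probe sets. The muscle sums were 7335 to 8788 against 10508 to 11393, and none of the 10 was called. All 5 endothelial genes (median -0.29) and all 4 suprabasal genes (median -0.29) were below 0 there as well, with none called. The genes of every list here were named through the authors' lists of differences. A shared direction in the comparisons of those lists can thus come from the naming and is not independent evidence. Of the basal keratinocyte genes, Col17a1 fell in WT skin against WT buds (-0.58 ± 0.093) and rose in skin labelled K14-PTHrP against K14WT skin (0.57 ± 0.093). The endothelial gene Esam and the leukocyte gene C1qa were called higher in WT skin than in WT buds, but not with the 127 left out (adjusted p = 0.0664 and 0.0735), and no erythroid gene of 4 was called in the main comparisons. Within WT skin, replicate 3, which had the highest levels of the members, had the lowest fibroblast and muscle sums of its group (34558 and 7821). Its epithelial sums were mixed. The periderm and junction sums were the highest of the group and the suprabasal sum the lowest (13180). Those of the other keratins and the basal keratinocyte genes lay between the other arrays. The part of these cells in the keratin differences was not tested.

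Among 1891 other named genes, the profiles most like each keratin over the 15 arrays were ranked by Pearson r of the log2 levels, as a description, since the arrays share groups and the names come from lists of differences. For Krt8 the nearest was its filament partner Krt18 (r = 0.934), followed by Krt4 (0.907), Duoxa1, a maturation factor of a dual oxidase (0.899), Esrp1 (0.874) and Dlx5, a homeodomain factor (0.867). For Krt18 they were Epcam (0.939), Esrp1 (0.935), Krt8, Krt4 (0.921) and Kmt5a, a histone methyltransferase (0.921). Krt19 stood somewhat apart, ranking 17 for Krt8 (r = 0.813) and 117 for Krt18 (r = 0.761). Nearest to it were Pycard, an inflammasome adaptor (0.912), Krt4 (0.883), Trim29 (0.877), the protease inhibitor Spint1 (0.859) and Niban2 (0.855). Krt4 was the only gene among the 5 nearest of all of them, and its centred profile differed from those of Krt8, Krt18 and Krt19 by a root mean square of 0.23, 0.35 and 0.20 log2 units.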

How the data were processed

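RNA of pooled tissue was hybridised to 15 MOE430A arrays. The authors deposited log2 expression levels, made with GC-RMA per the file headers. MAS5 and affy, with no version, also stand in the submitters' processing notes. Their deposited lists give a mean signal per group, a linear intensity rounded to whole numbers, and a signed fold change, used here as a score; per the file headers these probe sets passed Cyber-T with a posterior probability over 0.95 and an FDR below 5%. No genome build was used for the values.

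Of 22690 probe sets 64 controls were left out, and 11690 above their array's median on at least 3 arrays were kept. The 5 group means were fitted in limma 3.58.1 under R 4.3.3 (lmFit, eBayes, two-sided, Benjamini-Hochberg, threshold 0.05), with 10 residual degrees of freedom, and was tested on simulated data. SEs come from all groups, whose median SD over kept probe sets ran from 0.115 to 0.202. For a typical probe set those of the bud comparison can thus be too large and those of the K14 groups too small. Single probe sets differ from this. Krt8 1423691_x_at had SDs of 0.062 in K14-PTHrP skin, 0.077 in K14WT skin and 0.43 in WT skin. Its SE can be too large for the K14 groups and too small for WT skin. The number of arrays limits the precision. Symbols were updated by Entrez ID through RefSeq. Genes were named by a rule: the members, the 5 nearest profiles of each, and up to 4 genes per list by smallest adjusted p, not all of which are described. Cdh1, Epcam and the keratins named beyond 4 were chosen for their role. The members and lists were chosen with earlier results of these data known. Alternatives covered the filter, normalization, prior, groups fitted, replicate block, probe set and each array left out. Python 3.11.15 with pandas 2.3.3 and matplotlib 3.10.9 made tables and figures.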

Additional observations from a re-analysis of the deposited data

How the results depend on the processing

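Over 33 differences of Krt8, Krt18 and Krt19 and 844 recomputed values, 787 counted as unchanged, 49 values of called differences no longer passed, 8 of uncalled ones passed, and 10 values in 6 uncalled differences had the opposite sign. A value counted as unchanged if it stayed on the same side of the threshold. Log2 ratios of linear mean signals have no p-value and counted as unchanged within the residual SD of the main value. Fitting only the compared groups uses fewer arrays. Leaving out the 127 changed the adjustment rather than the estimates. Krt18 in WT skin against WT buds stayed at -0.976, with an SE of 0.1787 in the main fit and 0.1788 without them. The cause of the other changes was not tested. Counts of called probe sets were 83 in K14-PTHrP against K14WT skin (44 with 1 probe set per named gene, 7 with only the compared groups, 48 to 210 with each array left out in turn), 4 in buds labelled PTHrP-/- against WT buds (2 with probe sets above the median on all 15 arrays, 97 with only the compared groups, 1 to 6 leaving out arrays) and 214 in WT skin against WT buds (131 with 1 probe set per named gene, 86 with the filter on all 15 arrays, 18 without the 127, 153 to 261 leaving out arrays). With only the compared groups, Krt8 (-0.67) and Krt18 (-0.60) passed between the buds, and Krt8 in WT skin against WT buds (-0.80), Krt19 in K14-PTHrP skin against WT buds (-1.01, adjusted p = 0.0511), Krt18 in K14-PTHrP skin against PTHrP-/- buds (-1.17), and Krt8 (-0.70) and Krt18 (-0.79) in K14-PTHrP against WT skin did not. Without the 127, Krt18 (-0.98) and Krt8 (-0.80) in WT skin against WT buds, and Krt18 (-0.79) and Krt8 (-0.70) in K14-PTHrP against WT skin, no longer passed. With no filter on dim probe sets the calls of Krt18 (-0.79, 0.0590) and Krt8 (-0.70, 0.0567) in K14-PTHrP against WT skin, of Krt18 in K14WT skin against PTHrP-/- buds (-0.94, 0.0585) and of Krt19 against WT buds (-1.01, 0.0631 in K14-PTHrP and -0.85, 0.0679 in K14WT skin) were lost. Quantile normalization ended those of Krt19 (-0.98, 0.0525 and -0.79, 0.0638) and of Krt8 in K14-PTHrP against WT skin (-0.59, 0.104), which the other Krt8 probe sets also did not show (-0.35 and -0.34), as in K14-PTHrP skin against PTHrP-/- buds (-0.79 and -0.54). Deviations of same-numbered arrays correlated between -0.141 and 0.311. No correlations of differently numbered arrays were set against these, so whether the replicate numbers pair the samples was not tested. With the replicate block, Krt18 in K14WT against WT skin passed (-0.56, adjusted p = 0.0372). Leaving out each array in turn, the differences ran from -0.99 to -0.63 for Krt18 and -0.83 to -0.45 for Krt8 in K14-PTHrP against WT skin, -0.76 to -0.40 for Krt18 in K14WT against WT skin, -1.12 to -0.93 and -1.04 to -0.62 for Krt19 in K14-PTHrP and K14WT skin against WT buds, -0.50 to -0.43 for Krt8 in K14-PTHrP against K14WT skin, -0.74 to -0.61 for Krt8 between the buds, -1.04 to -0.66 for Krt8 in WT skin against WT buds, and, against PTHrP-/- buds, -1.02 to -0.84 for Krt18 in K14WT skin and -0.88 to -0.76 for Krt8 in K14-PTHrP skin.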
